A study of Mus musculus with 70 samples.

Results

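The interferon-stimulated genes examined here are 40 genes that cells transcribe after exposure to interferons, followed in serially transplanted mouse renal carcinoma cells. A gene was represented by the probe, among all non-control probes carrying its name or its transcript, with the brightest mean signal over all arrays. In this way 37 of the 40 genes received a probe, out of 21154 gene symbols named on 55681 probes. No probe was matched to Oas1b, Mx1 or Mx2, which are not analysed here, and the Oas1g probe was not well above background on any array. The remaining 36 genes were tested, and 21 of them were well above background on all 70 arrays. A spot counted as well above background when the scanner software set that flag.

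RENCA is a transplantable renal adenocarcinoma cell line of BALB/c mice. The cells carried a lentiviral enhanced green fluorescent protein (GFP) in all groups, including the parental cells (P0), and were passaged through 6-week-old female BALB/c mice with a working immune system. In the kidney route (KPT), cells were placed under the capsule of the left kidney and recovered from the primary tumor. In the tail route (T-LM), cells were injected into the tail vein and recovered from lung metastases. In the lung route (K-LM), cells were recovered from the lung metastases that arose from kidney implants. By the study's methods, tissue was dissociated with collagenase and the cells were grown in culture before RNA extraction and before transplantation into the next mice, with the loss of GFP-negative cells as the end point of culture. Passages ran from P1 to P6. The libraries comprised 2 RNA samples of P0, 5, 2, 2, 3, 5 and 5 of KPT P1 to P6, 5, 2, 3, 4, 6 and 4 of T-LM P1 to P6, and 1, 1, 5, 3, 4 and 3 of K-LM P1 to P6. Each passage was grown from cells of the passage before it, and nothing in the labels states how many tumors contributed to a sample, so that the p-values describe the spread between these samples, some of which may be technical. All lines descend from the same GFP-transduced parental cells. The labels name the tumor or the metastases as the source and describe homogenization with a tissue disruptor, whereas the methods describe cultures, so that the levels may be those of cultured cells or of material that still held host tissue.

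Interferons are secreted proteins that warn cells of infection. Type I interferons bind the receptor chains Ifnar1 and Ifnar2, the kinases Jak1 and Tyk2 become active, and a complex that holds Stat2 and Irf9 binds the interferon-stimulated response element (ISRE) of target promoters. Interferon gamma acts through another promoter element, the gamma-activated site (GAS). The induced proteins sense viral RNA (Ddx58, Ifih1, Dhx58), block translation of foreign RNA (Ifit proteins), make 2′-5′ oligoadenylates that activate an RNase (Oas proteins), attack vacuoles (GTPases such as Gbp2 and Irgm1), or feed back on the pathway (Usp18). Tumor cells can carry such a program without infection.

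The promoters show the sequences through which this control is known to work. RefSeq (GRCm38.p6) provided a promoter of 300 bases, 250 before and 50 after the start of transcription, for 29 of the 40 genes in 33 windows. An ISRE core, spelled GAAANNGAA and searched on both strands, was present in 20 of the 29 genes (69.0%), against 9.76% of all 27025 genes with such a window. A GAS, spelled TTCNNNGAA and identical on both strands, was present in 8 of 29 (27.6%), against 9.55% of all genes. Both motifs occurred in 5 of the 29 genes. Neither occurred in 6, namely Cmpk2, Irf7, Irf9, Oasl1, Oasl2 and Xaf1, some of which also feature in the results below. The motifs overlapped in 1 window, that of Bst2. A match is a run of letters in this window and not evidence of binding. The following promoters belong to some of the genes on which the results below turn, all of them with an ISRE core. They run 5′ to 3′ in the direction of transcription, with every ISRE core in capitals.
Isg15, chr4:156200769-156201068, minus strand: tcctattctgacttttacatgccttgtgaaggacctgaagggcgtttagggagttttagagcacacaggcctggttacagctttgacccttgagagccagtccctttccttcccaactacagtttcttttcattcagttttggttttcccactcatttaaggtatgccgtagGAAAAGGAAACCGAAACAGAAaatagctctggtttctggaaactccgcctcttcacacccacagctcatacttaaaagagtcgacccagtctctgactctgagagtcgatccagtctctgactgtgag
Ifit3, chr19:34583279-34583578, plus strand: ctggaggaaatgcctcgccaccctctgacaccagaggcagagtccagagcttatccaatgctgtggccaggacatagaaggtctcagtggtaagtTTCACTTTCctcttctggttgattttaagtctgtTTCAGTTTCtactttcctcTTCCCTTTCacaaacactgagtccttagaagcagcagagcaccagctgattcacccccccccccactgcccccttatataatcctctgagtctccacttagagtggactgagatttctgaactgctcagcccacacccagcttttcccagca
Oas3, chr5:120777610-120777909, minus strand: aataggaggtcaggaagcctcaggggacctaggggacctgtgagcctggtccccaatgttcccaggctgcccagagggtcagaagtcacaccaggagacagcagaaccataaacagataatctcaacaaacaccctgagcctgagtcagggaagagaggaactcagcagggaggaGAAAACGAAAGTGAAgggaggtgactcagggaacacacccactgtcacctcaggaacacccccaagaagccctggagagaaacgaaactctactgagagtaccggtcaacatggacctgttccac
Rsad2, chr12:26456403-26456702, minus strand: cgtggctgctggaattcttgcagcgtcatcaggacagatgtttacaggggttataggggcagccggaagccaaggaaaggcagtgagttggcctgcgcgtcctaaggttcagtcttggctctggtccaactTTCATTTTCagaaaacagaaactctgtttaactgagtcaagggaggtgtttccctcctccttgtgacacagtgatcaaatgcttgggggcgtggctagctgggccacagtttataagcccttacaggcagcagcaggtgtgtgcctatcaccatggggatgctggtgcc
Stat2, chr10:128270248-128270547, plus strand: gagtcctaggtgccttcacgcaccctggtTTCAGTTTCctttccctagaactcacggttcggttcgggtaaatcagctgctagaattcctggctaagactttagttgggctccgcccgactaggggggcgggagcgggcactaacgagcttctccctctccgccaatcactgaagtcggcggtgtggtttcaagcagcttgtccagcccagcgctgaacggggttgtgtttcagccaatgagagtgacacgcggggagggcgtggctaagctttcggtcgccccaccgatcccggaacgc
Counted from the start of transcription, the cores of Isg15 begin at -78, -72 and -66 and overlap to form 1 block. Those of Ifit3 begin at -155, -121 and -102, the 2 overlapping cores of Oas3 at -75 and -69, the core of Rsad2 at -119 and that of Stat2 at -221.

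Expression was measured on single-color arrays. All levels below are on a log2 scale, as the background-subtracted signal relative to its array's 75th percentile, which was taken over the 12209 probes that were well above background on every array. A level of 0 therefore means a signal at that percentile. Levels of different probes cannot be set against each other. Between 25.2% and 55.2% of probes were well above background on an array. The arrays were scanned as a set of 62 and a later set of 8, and the later set held all 3 K-LM P6 samples together with repeats of 5 RNA samples from P0 and KPT P6. Comparisons with K-LM P6 carry a term for the array set that rests on those 5 repeats. The median absolute difference between the arrays of 1 RNA sample, over the genes studied, was 0.149 to 0.254. The renal epithelial genes Krt8, Krt18 and Pax8 were well above background on all arrays, whereas Epcam, Cdh1 and Pax2 were well above background on 5, 6 and 1 of 70. Markers of other cells differed between groups: the mean level of 10 leukocyte genes was -3.89 to -2.95 in T-LM P6, -5.43 to -4.87 in KPT P6 and -6.16 to -5.86 in K-LM P6, and the mean of 3 lung epithelial genes was -5.37 to -3.31 in T-LM P6 and -7.61 to -7.44 in K-LM P6. In such samples, a smaller share of a cell type and less RNA per cell cannot be told apart.

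**Figure D1:**
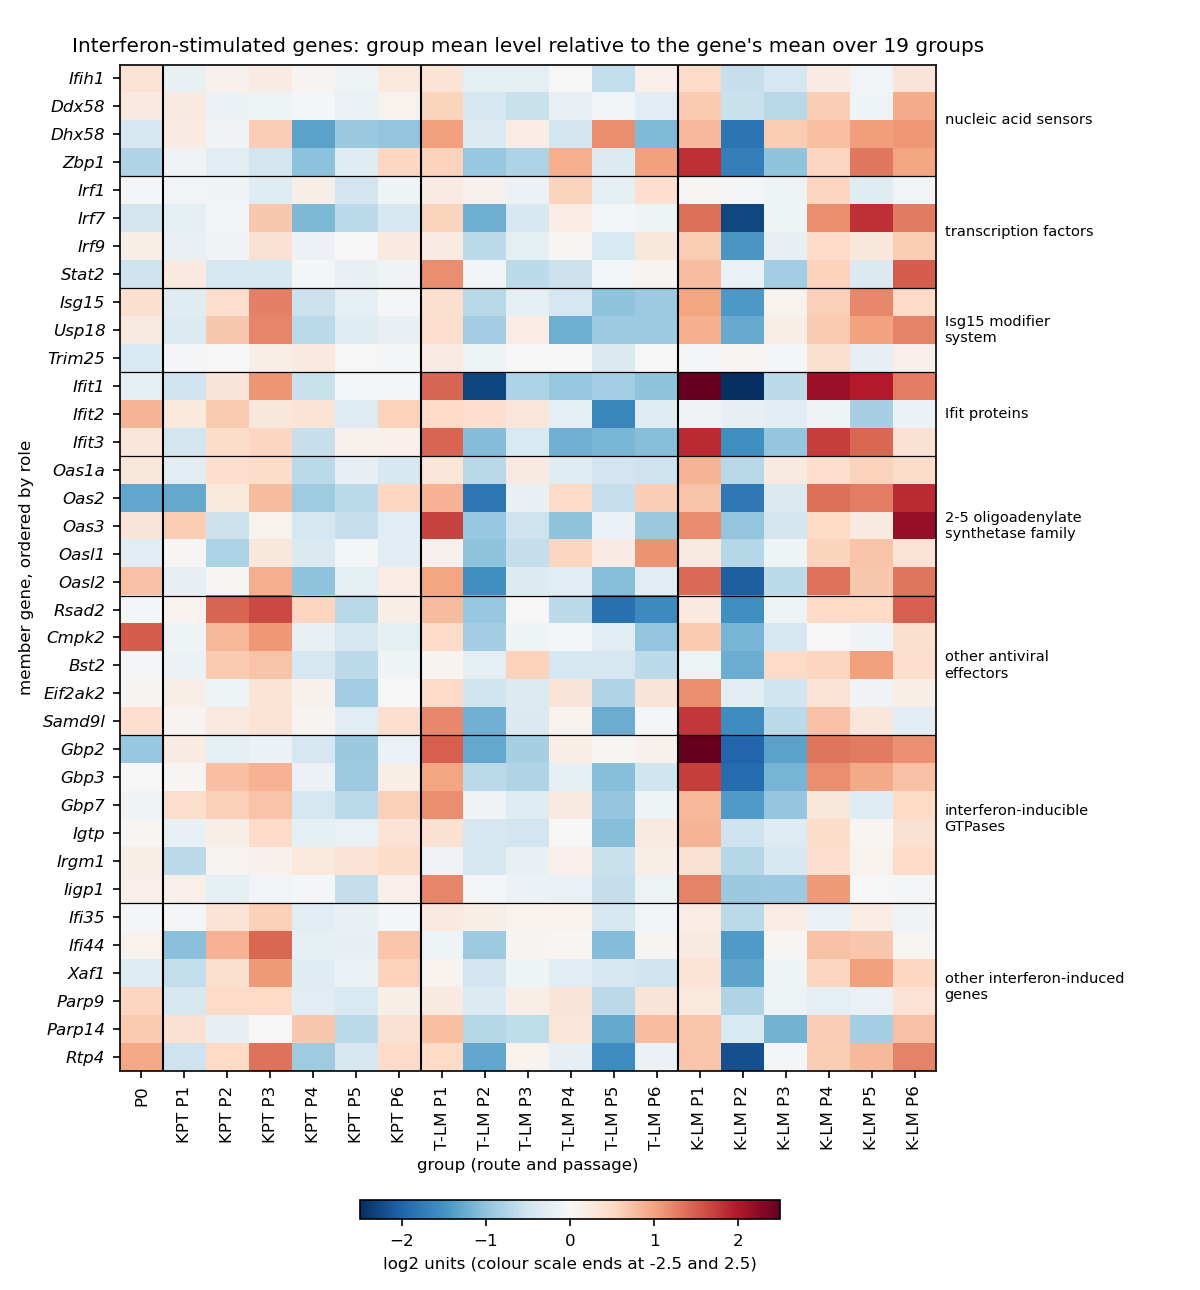
Heat map of 36 interferon-stimulated genes (rows, grouped by role) in the 19 groups of RNA samples (columns, by route and passage); color gives the group's mean log2 level minus that gene's mean over the groups. Many rows are high in T-LM P1, in K-LM P1 and in K-LM P4 to P6, and low in T-LM P5 and in K-LM P2; K-LM P1 and K-LM P2 are 1 sample each.

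The genes moved together from sample to sample. Among the 21 that were well above background everywhere, the median correlation of the 210 pairs was 0.458 over 65 RNA samples, and 0.461 after each group's mean had been removed. These coefficients describe samples that share arrays and scaling. The mean level of those 21 genes was -1.83 and -1.89 in the P0 samples. It ranged from -2.38 to -1.95 in KPT P1, from -1.91 to -1.21 in T-LM P1, and from -2.03 to -1.67 in KPT P6. The single samples of K-LM P1 and K-LM P2 were at -1.34 and -2.89. The mean was lowest in KPT P4 replicate 5 (-3.44) and highest in K-LM P4 replicate 1 (-0.81). The former sample held the lowest value of 13 of the 36 genes, and the latter held the highest value of 14. Both belong to the groups of P4, in which no test of these genes passed.

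**Figure D2:**
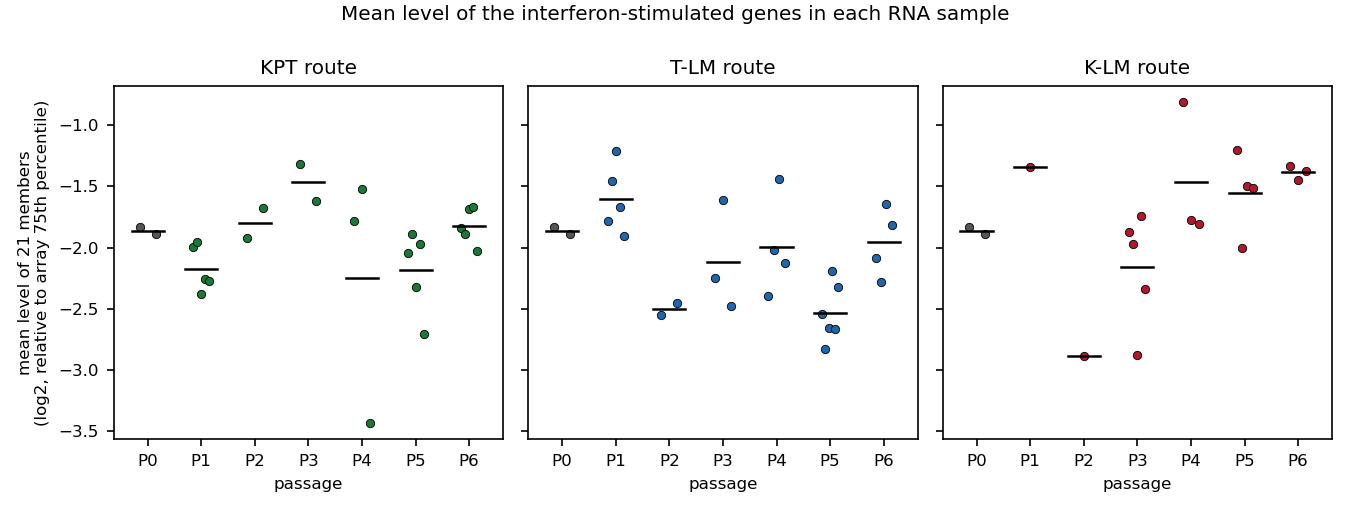
Mean log2 level of the 21 genes well above background on all arrays (vertical axis) in each RNA sample by passage (horizontal axis), in a panel for each route; points are RNA samples and bars are group means. The 3 K-LM P6 samples lie between -1.44 and -1.33 and the 6 T-LM P5 samples between -2.83 and -2.19.

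The first comparison asked what a single passage in each organ did to the parental cells. In the kidney route, 1 of 36 genes was called lower in KPT P1 than in P0, and none higher. That gene was Parp9, a partner of the ubiquitin ligase Dtx3l. Its levels were -2.18 and -2.13 in P0, and -2.92, -2.90, -3.21, -3.36 and -3.05 in KPT P1, with no overlap. The change was -0.995 ± 0.21 on the log2 scale (SE, limma, adjusted p = 0.00492), and 1.01% of all probes were called lower. In either direction 991 of 22029 probes were called. The 3 genes with the largest fitted changes did not pass: Cmpk2 at -1.41 (adjusted p = 0.0747), Rtp4 at -1.38 (adjusted p = 0.292) and Gbp2 at 1.31 (adjusted p = 0.146). The fibroblast mean was -8.20 and -8.16 in P0 and -5.89 to -1.45 in KPT P1, with 2 of 6 fibroblast genes called higher. The leukocyte mean was -6.13 and -5.84 in P0 and -4.83 to -1.98 in KPT P1, without overlap, and 0 of 10 leukocyte genes were called. An RNA index, the mean level of genes with long mRNAs minus that of ribosomal protein genes, was -6.69 and -6.66 in P0 and -6.55 to -5.39 in KPT P1. The part of these measures in the call was not tested, except that no gene was called with the index as a covariate. With the index 365 of 22029 probes were called in either direction, against 991 in the reported fit. Leaving out either P0 sample also left no gene called.

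In the tail route, 2 of 36 genes rose from P0 to T-LM P1, against 2.29% of all probes called higher. Stat2, a subunit of the complex that binds ISRE, was at -2.53 and -2.90 in P0 and at -0.98, -0.89, -0.53, -1.08 and -1.66 in T-LM P1. Gbp2, an interferon-inducible guanylate-binding protein, was at -5.32 and -5.86 in P0 and at -3.81, -2.42, -2.56, -2.81 and -4.08 in T-LM P1. In both genes every T-LM P1 sample was above both P0 samples, and the lowest T-LM P1 value was that of the sample labelled LOT1. The fitted changes, on the first array of each RNA sample, were 1.81 ± 0.34 for Stat2 (adjusted p = 0.00224) and 2.61 ± 0.51 for Gbp2 (adjusted p = 0.00309). Oas2 had a fitted change of 2.28 (adjusted p = 0.103). Of the 36 genes 29 had a positive change, with a median of 0.43 against 0.16 over all probes. Of the 6 fibroblast genes 2 were called higher, with a mean of -6.90 to -1.06 in T-LM P1, and the LOT1 sample held the lowest value. The RNA index was -6.57 to -5.02 in T-LM P1, and with it as a covariate 1 gene was called. Over all probes 1004 of 23488 were called with the index and 636 without it. The leukocyte mean was -5.44 to -4.35 in T-LM P1, above both P0 samples, and 0 of 10 leukocyte genes were called. The part of fibroblasts and leukocytes was not tested. Leaving out either P0 sample again left no gene called.

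At P1 the tail route was compared directly with the kidney route. All 35 genes tested had a higher mean in T-LM P1 than in KPT P1, with a median difference of 0.71 against 0.04 over all probes, yet none passed the adjusted threshold in limma, and 24 of the 35 had an unadjusted p under 0.05 (10.1% of all probes did). Only 0.013% of all probes were called in either direction. The smallest adjusted p belonged to Ifit3, at a difference of 1.90 ± 0.32 (adjusted p = 0.083). Its levels were -5.55, -5.31, -6.60, -5.71 and -6.03 in KPT P1, and -4.27, -3.78, -3.09, -3.72 and -4.83 in T-LM P1, without overlap. Oas2, a 2′-5′ oligoadenylate synthetase, differed by 2.15 ± 0.41 (adjusted p = 0.13), and its levels of -4.92, -4.61, -5.05, -5.91 and -5.33 in KPT P1 likewise lay below the -2.98, -2.84, -1.83, -3.23 and -4.18 of T-LM P1. Ifit1 differed by 1.95 ± 0.43 (adjusted p = 0.175), with 2 of 5 KPT P1 samples well above background. Samples of the 2 groups with the same replicate number deviated together, and with the replicate number as a block the count was again 0, with 25 genes at an unadjusted p under 0.05. The leukocyte mean ranged from -4.83 to -1.98 in KPT P1 and from -5.44 to -4.35 in T-LM P1, and the fibroblast mean over 6 genes from -5.89 to -1.45 and from -6.90 to -1.06. Their part in these differences was not tested.

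From P1 to P6, the question was what repeated passage added within a route. In the tail route 8 of 36 genes fell and 1 rose. Over all probes 5.39% were called lower and 3.7% higher. The genes' median change was -0.75, against -0.15 over all probes. The fall was spread over the roles: Ifit3 and Ifit1 among the Ifit proteins, Oas3 among the synthetases, Dhx58 among the sensors, Stat2 among the transcription factors, Rsad2 and Cmpk2 among the other effectors, and Gbp7 among the GTPases.

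Ifit3, a protein of tetratricopeptide repeats like its relative Ifit1, was at -4.27, -3.78, -3.09, -3.72 and -4.83 in T-LM P1 and at -6.69, -6.68, -6.13 and -6.30 in T-LM P6. The groups did not overlap, and Ifit3 fell by 2.51 ± 0.39, or 5.70-fold (adjusted p = 0.000114). Its near copy Ifit3b, outside the 40 genes, changed by -2.68 ± 0.37 (adjusted p = 2.38e-05), and hybridization of each transcript to the other's probe was not tested. Ifit1 was at -5.74, -4.12, -3.49, -4.80 and -6.12 in T-LM P1 and at -7.79, -7.39, -6.97 and -7.12 in T-LM P6, where a single sample of the 4 passed the background flag, and fell by 2.46 ± 0.58 (adjusted p = 0.00509). Oas3, the largest of the synthetases, fell by 2.62 ± 0.55, or 6.15-fold (adjusted p = 0.00184). Its levels were -3.39, -3.14, -2.49, -2.85 and -3.86 in T-LM P1, all above the -6.12, -6.56, -4.71 and -5.69 of T-LM P6.

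Rsad2, or viperin, makes a nucleotide that ends viral RNA chains. It was at -5.12, -5.50, -4.52, -4.73 and -4.77 in T-LM P1 and was not well above background in any T-LM P6 sample, where its values were -7.85, -7.15, -7.08 and -7.17. It was at least 3.89-fold lower in T-LM P6, as the mean over T-LM P1 against the higher, on each array, of the dimmest signal well above background and the probe's own signal (adjusted p = 0.00051). Dhx58, a regulator of the RNA sensors, fell by 2.14 ± 0.45 (adjusted p = 0.00213), from -3.35, -4.54, -4.64, -3.79 and -4.999 to -6.44, -7.30, -5.80 and -6.06. Gbp7, a further guanylate-binding protein, fell by 1.28 ± 0.29 (adjusted p = 0.00358). Stat2 fell by 1.09 ± 0.27 (adjusted p = 0.00732), and its samples overlapped, since the T-LM P6 value of -1.61 lay above the LOT1 value of -1.66. Cmpk2, a mitochondrial nucleotide kinase, was called at an adjusted p of 0.00855. The background flag was passed by 1 of 5 T-LM P1 samples and by 0 of 4 T-LM P6 samples, with values between -9.33 and -6.67, so that no fold is given.

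Oasl1, a relative of the synthetases that restrains translation of Irf7, went the other way. Its levels were 0.13, -0.54, 0.21, 0.02 and 0.06 in T-LM P1, -0.96, -0.40 and -0.85 in T-LM P3, and 0.94, 0.72, 1.03 and 1.29 in T-LM P6. The rise from P1 was 1.02 ± 0.25 (adjusted p = 0.00593). From P3 to P6 the rise was 1.73 ± 0.28 (adjusted p = 3e-04), and it was the only call among 36 genes in that comparison, in which 3.65% of all probes were called higher. Zbp1, a sensor of left-handed nucleic acid, had a change of 1.79 from P3 (adjusted p = 0.0139), and Rsad2 one of -1.61 (adjusted p = 0.0367). From P0 to P6, Oasl1 rose by 1.36 ± 0.32 (adjusted p = 0.00729), with 3.74% of all probes called higher. Cmpk2, at -6.44 and -6.24 in P0 and at -8.86, -8.55, -9.33 and -8.66 in T-LM P6, was called lower there (limma, adjusted p = 0.00318). Over all probes 0.894% were called lower. The P0 levels average both arrays of each sample, whereas the test used the first arrays. For Cmpk2 no first array of P0 and no T-LM P6 array was well above background, so that no fold is given. Its probe passed the flag on 6 of 70 arrays. In that comparison Oas2 had a change of 2.03 (adjusted p = 0.199). T-LM P6 was also the group with the highest lung epithelial mean, and all 3 lung epithelial genes were called higher from T-LM P1 to T-LM P6, as were 2 of the 10 leukocyte genes, with 1 called lower. From T-LM P3 to P6, 2 fibroblast, 3 leukocyte and 2 lung epithelial genes were called higher, and from P0 to T-LM P6, 3, 4 and 1. Their part in these changes was not tested. From P0 to T-LM P6 no gene was called without P0 replicate 2 or without T-LM P6 replicate 3. The RNA index went from between -6.57 and -5.02 in T-LM P1 to between -7.30 and -6.53 in T-LM P6. With it as a covariate 4 genes were called from P1 to P6. Over all probes 1343 of 23488 were called with the index and 2134 without it. In the reported fit, 3 genes were called from P1 to P6 without T-LM P6 replicate 2.

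In the kidney route, 2 of 36 genes rose from P1 to P6, against 4.58% of all probes called higher, and none fell. In either direction 2577 of 22029 probes were called. Ifi44, an interferon-induced protein, was at -3.74, -3.30, -4.13, -3.84 and -4.13 in KPT P1 and at -2.10, -2.42, -1.87, -1.87 and -2.24 in KPT P6, a rise of 1.88 ± 0.47 or 3.68-fold (adjusted p = 0.00734). Irgm1, a GTPase that controls autophagy and vacuole membranes, was at -2.91, -2.53, -3.12, -2.71 and -4.09 in KPT P1 and at -2.16, -2.12, -1.97, -1.63 and -1.91 in KPT P6, a rise of 1.13 ± 0.27 (adjusted p = 0.00557). Neither gene's samples overlapped. The second probe of Irgm1 had a change of 0.727 that did not pass (adjusted p = 0.0234). Oas2 had a change of 1.82 ± 0.54 (adjusted p = 0.0199) and Xaf1, an antagonist of the caspase inhibitor Xiap, one of 1.22 (adjusted p = 0.0265). The leukocyte mean was -4.83 to -1.98 in KPT P1 and -5.43 to -4.87 in KPT P6, the fibroblast mean -5.89 to -1.45 and -5.52 to -4.51, with 0 genes of either list called, and 1 lung epithelial gene was called higher. Their part was not tested. The RNA index was -6.55 to -5.39 and -7.26 to -6.16, and 7 of 19 long mRNAs were called lower. No gene was called with the index as a covariate or without the filter on dim probes. Over all probes 1387 of 22029 were called with the index, and 1729 of 55681 without the filter. The calls of Ifi44 and Irgm1 depended on single samples: no gene was called without KPT P6 replicate 3, and likewise without KPT P6 replicates 4 or 5 or KPT P1 replicates 3 or 5. From P3 to P6 limma called none of the 36 genes, 7 of them were at an unadjusted p under 0.05, and 27 had a negative change. There 1.43% of all probes were called. The largest changes in that comparison were those of Dhx58 (-1.59 ± 0.45, adjusted p = 0.0377), Rsad2 (-1.51, adjusted p = 0.167) and Usp18 (-1.40, adjusted p = 0.0504). From P0 to P6 limma called none either, with 4 at an unadjusted p under 0.05, 18 changes in each direction and 3.31% of all probes called. The largest changes there were those of Oas2 (1.95, adjusted p = 0.129), Cmpk2 (-1.42, adjusted p = 0.116) and Zbp1 (1.12, adjusted p = 0.426).

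The difference between the routes in their change from P1 to P6 was itself tested, as an interaction term. It was negative for 32 of 36 genes, with a median of -0.95 against -0.04 over all probes. Only Ifit3 passed, at -3.07 ± 0.51 (adjusted p = 0.000221), where 0.316% of all probes were called lower. Its mean went from -5.84 ± 0.50 (SD, n = 5) to -5.27 ± 0.33 (n = 5) in the kidney route and from -3.94 ± 0.65 (n = 5) to -6.45 ± 0.28 (n = 4) in the tail route. Ifit1 had an interaction of -2.99 ± 0.89 (adjusted p = 0.0605) and Rsad2 one of -2.44 ± 0.67 (adjusted p = 0.0365). The interaction contains the P1 and P6 samples already described, so that it restates those values and adds the test of their difference.

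**Figure D3:**
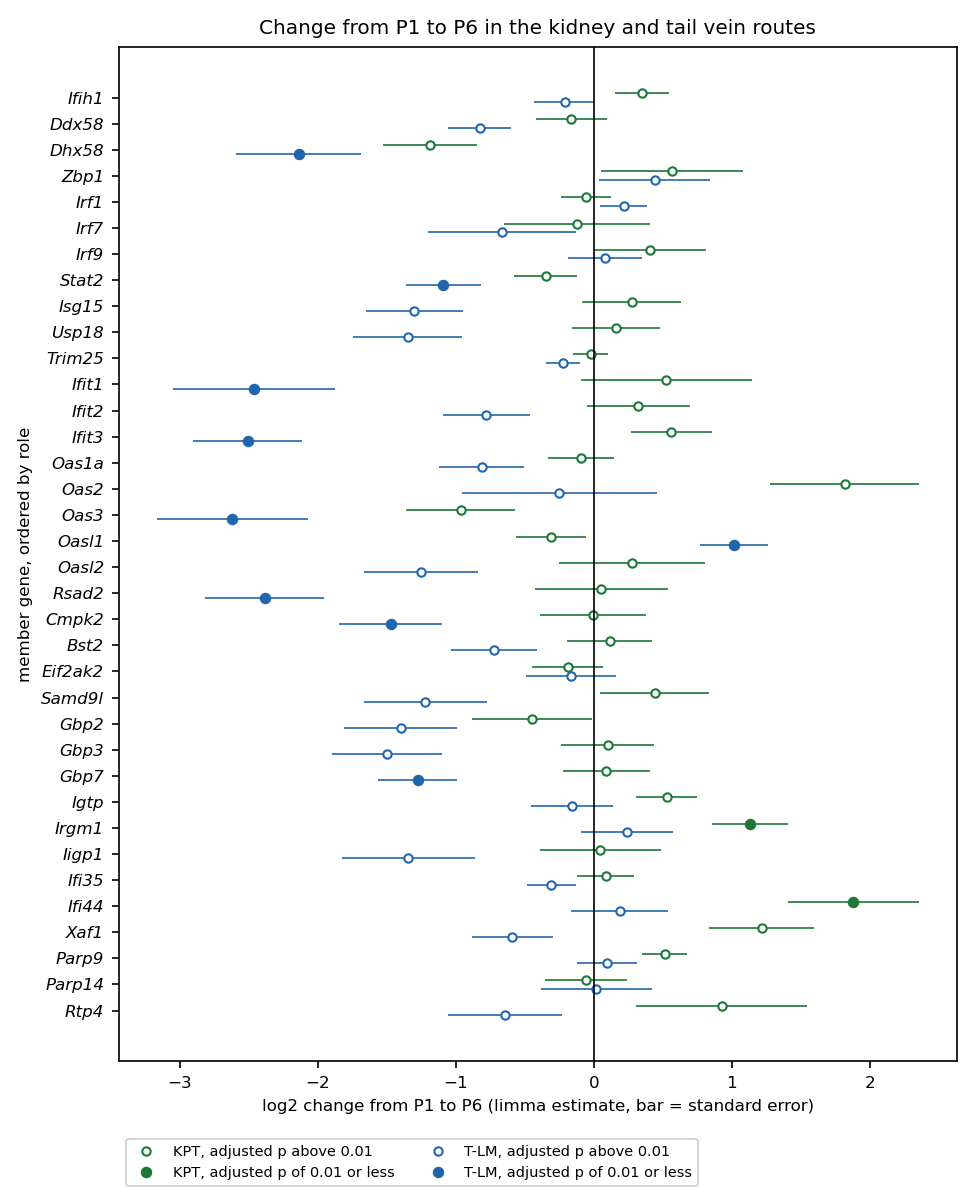
Change from P1 to P6 (log2, limma estimate, bars are SE) of each of 36 genes in the kidney route and in the tail route; filled points passed an adjusted p of 0.01. Tail-route points lie to the left of the kidney-route points for 32 genes, and Ifit3 has the widest gap, at -3.07.

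The lung route asked how metastases that arose from kidney implants changed over passages. With 1 sample each at P1 and P2, the test ran from P3 to P6. Of 36 genes 9 rose and none fell, against 2.44% of all probes called higher. In either direction 767 of 22693 probes were called. A positive change was fitted for 34 of the 36, with a median of 0.89 against 0.12 over all probes. The called genes came from the sensors (Ddx58, Zbp1), the transcription factors (Stat2), the synthetases (Oas2, Oas3), the GTPases (Gbp2, Gbp3, Gbp7) and the remaining group (Parp14), whereas none of the Ifit proteins passed.

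Stat2 was at -2.73, -2.59, -3.39, -3.23 and -3.37 in K-LM P3 and at -0.58, -0.65 and -0.80 in K-LM P6. The gap between the groups was wider than either group, and Stat2 rose by 2.23 ± 0.25, or 4.69-fold (adjusted p = 6.28e-06). It was at -2.15, -3.05, -2.58 and -2.43 in K-LM P5, so that its P6 samples also stood above those of P5. Oas3 was at -4.13, -4.57, -6.17, -6.02 and -5.62 in K-LM P3 and at -2.51, -2.58 and -2.87 in K-LM P6, a rise of 2.42 ± 0.43 (adjusted p = 0.00155). Oas2 was at -3.02, -3.84, -4.91, -4.51 and -4.94 in K-LM P3 and at -1.84, -2.22 and -1.98 in K-LM P6, a rise of 2.17 ± 0.44 (adjusted p = 0.00377). Both synthetases were higher in every K-LM P6 sample than in any K-LM P3 sample.

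Gbp2 rose by 2.21 ± 0.39 (adjusted p = 0.00149), from -6.10, -5.74, -6.27, -5.70 and -6.08 to -3.76, -3.83 and -2.92. Gbp3 was at -5.64, -5.34, -7.37, -5.02 and -5.81 in K-LM P3 and at -3.75, -4.25 and -3.77 in K-LM P6, a rise of 1.92 ± 0.43 (adjusted p = 0.00799). Gbp7 was at least 1.51-fold higher in K-LM P6 (adjusted p = 0.00824), since no K-LM P3 sample was well above background. All 3 encode guanylate-binding proteins, which coat the vacuoles of intracellular pathogens. Zbp1 was at -4.21, -4.87, -4.66, -3.81 and -5.19 in K-LM P3 and at -2.83, -2.60 and -2.27 in K-LM P6, a rise of 2.00 ± 0.40 (adjusted p = 0.00382). Ddx58, the RNA sensor also called RIG-I, rose by 1.55 ± 0.30 (adjusted p = 0.00324), from -2.12, -2.62, -3.02, -3.32 and -3.51 to -1.28, -1.19 and -1.40. Its second probe had a change of 1.495 that did not pass (adjusted p = 0.0123). Parp14, an ADP-ribosyltransferase, rose by 1.76 ± 0.41 (adjusted p = 0.00897).

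From P0 to K-LM P6, 3 of 36 genes rose, against 3.68% of all probes called higher. They were Oas2 at 3.13 ± 0.47 (adjusted p = 9e-05), Stat2 at 1.96 ± 0.27 (adjusted p = 2.34e-05) and Gbp2 at 1.95 ± 0.43 (adjusted p = 0.00432). Oas2 was at -5.84 and -4.52 in P0, below each K-LM P6 value. On the later array set alone 11 genes were called, among them Ifit2 as the only lower one (-1.09 ± 0.14, limma, adjusted p = 0.000684). That setting called 3035 of 21010 probes in either direction, against 1089 of 22693 in the reported fit. With the slide as a random block 6 genes and 1661 of 22693 probes were called, and without P0 replicate 1 there was 1 gene. From P0, 4 of 6 fibroblast genes and 1 lung epithelial gene were called higher. The fibroblast mean rose from between -7.20 and -5.41 in K-LM P3 to between -4.45 and -2.85 in K-LM P6, with 1 of 6 fibroblast genes called higher, while the leukocyte mean was -5.78 to -5.30 and -6.16 to -5.86, with 0 of 9 tested leukocyte genes called. The part of fibroblasts in these changes was not tested. The RNA index was -9.37 to -7.32 in K-LM P3 and -6.59 to -6.49 in K-LM P6, and with it as a covariate 1 gene was called from P3 to P6. Over all probes 119 of 22693 were called there, against 767 in the reported fit. With the slide as a random block 4 genes and 365 of 22693 probes were called. K-LM P6 was measured only in the later array set, and the P3 to P6 count was 2 without K-LM P6 replicate 1, 3 without replicate 2 and 2 without replicate 3.

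The routes were next compared at the same passage, beginning with P5. Of 34 genes tested, 13 differed between the 3 routes (limma F test), against 10.8% of all probes. They were Dhx58, Isg15, Bst2, Rtp4, Usp18, Rsad2, Ifit3, Xaf1, Gbp3, Ifi44, Irf7, Igtp and Ifit1. Pairwise tests at P5, added after the data had been seen, placed the lung route above the kidney route for 6 of 34 genes (2.78% of all probes called higher) and above the tail route for 10 of 34 (1.67% of all probes called higher), and below neither for any gene. In either direction, those tests called 1453 and 673 of 19727 probes. These comparisons share the K-LM P5 samples.

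Isg15, the ubiquitin-like modifier, was at 2.58, 1.87, 1.87 and 2.35 in K-LM P5 and at 1.09, 1.35, 0.32, 1.03 and -0.15 in KPT P5. In the 6 samples of T-LM P5 its lowest level was -0.44, its median -0.11 and its highest 0.54. No sample of the lung route overlapped those of either other route. Isg15 was higher by 1.44 ± 0.30 than in the kidney route (adjusted p = 0.00453) and by 2.20 ± 0.29, or 4.59-fold, than in the tail route (adjusted p = 0.000775). Usp18, the protease that removes Isg15 and dampens interferon receptor signaling, was at -1.002, -2.36, -1.68 and -1.83 in K-LM P5 and at -3.04, -2.42, -3.18, -2.65 and -3.84 in KPT P5, and ran from -4.32 through a median of -3.62 to -3.12 in T-LM P5. It was higher in the lung route than in the tail route by 1.90 ± 0.31 (adjusted p = 0.00225).

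Of the 3 Ifit proteins, Ifit1 and Ifit3 differed between the lung and tail routes. Ifit1 was at -3.59, -5.27, -3.70 and -4.77 in K-LM P5, and ran from -7.95 through -7.21 to -5.98 in T-LM P5, where 1 of 6 samples was well above background. Its difference was 2.82 ± 0.58 (adjusted p = 0.00792). Ifit3 was at -3.05, -5.02, -3.27 and -4.44 in K-LM P5 and ran from -7.10 through -6.75 to -5.35 in T-LM P5, a difference of 2.58 ± 0.43 (adjusted p = 0.00255). In both genes all samples of the lung route were above all samples of the tail route. Rtp4, a chaperone of receptors, was at -0.05, -1.81, -0.52 and -0.96 in K-LM P5 and ran from -3.64 through -3.25 to -2.54 in T-LM P5, a difference of 2.39 ± 0.38 (adjusted p = 0.00199). Ifi44 was at -1.96, -2.66, -2.06 and -1.75 in K-LM P5 and ran from -4.65 through -3.88 to -2.87 in T-LM P5, a difference of 1.76 ± 0.34 (adjusted p = 0.00564). Rsad2 was at -5.06, -5.90, -5.59 and -4.32 in K-LM P5 and not well above background in any of the 6 T-LM P5 samples. It was at least 1.80-fold higher in the lung route (adjusted p = 0.00256).

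Irf7, the factor that amplifies interferon transcription, was at -2.02, -3.14, -2.86 and -3.01 in K-LM P5 and at -4.98, -3.84, -6.08, -4.79 and -6.52 in KPT P5. The difference was 2.48 ± 0.52, or 5.60-fold (adjusted p = 0.0047). Gbp3 was at -3.09, -4.46, -3.45 and -3.86 in K-LM P5 and at -5.58, -5.24, -6.39, -4.90 and -5.73 in KPT P5, higher by 1.85 ± 0.37 (adjusted p = 0.00405) than in the kidney route and by 2.01 ± 0.36 (adjusted p = 0.00386) than in the tail route. Bst2, or tetherin, which holds budding virions at the cell surface, was at 2.18, 2.15, 1.45 and 2.44 in K-LM P5 and at 0.06, 0.58, 0.56, 0.59 and 0.11 in KPT P5. It was higher by 1.68 ± 0.27 than in the kidney route (adjusted p = 0.000872) and by 1.46 ± 0.26 than in the tail route (adjusted p = 0.00372). Xaf1 was higher by 1.17 ± 0.26 (adjusted p = 0.00621) and by 1.45 ± 0.25 (adjusted p = 0.00291), in the same order. Dhx58 had another pattern. Its levels of -4.03, -4.44, -4.30 and -4.25 in K-LM P5 and of -4.70 to -3.71, with a median of -4.04, in T-LM P5 lay above the -5.94, -5.78, -6.35, -5.93 and -7.10 of KPT P5. In the 3-route fit it was 1.97 higher in the lung route and 2.09 higher in the tail route than in the kidney route (F test, adjusted p = 0.000121).

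The leukocyte mean at P5 was -4.56 to -3.58 in K-LM, -4.84 to -1.13 in KPT and -5.68 to -2.57 in T-LM, and none of the 10 leukocyte genes was called between K-LM P5 and either other group. Of the 6 fibroblast genes 1 was called lower than in KPT P5 and none was called against T-LM P5. The RNA index was -9.08 to -8.19 in K-LM P5, -8.14 to -6.94 in KPT P5 and -8.30 to -7.17 in T-LM P5, and with it as a covariate 2 genes were called over KPT and 5 over T-LM. With the index 167 and 71 of 19727 probes were called, against 1453 and 673 in the reported fits. Without the index, 2 genes were called over KPT without KPT P5 replicate 3 or without K-LM P5 replicates 2 or 6, and 4 over T-LM without K-LM P5 replicate 6.

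At P6 the lung route was above the kidney route for 11 of 36 genes, against 6.48% of all probes called higher, and above the tail route for 13 of 36, against 4.23%. No gene was called lower in either comparison in the fits reported, against 8.82% and 7.57% of all probes called lower. With the deposited series values, Ifit2 was called lower than in the kidney route (-0.62 ± 0.15, limma, adjusted p = 0.00354). Several other alternatives also called Ifit2 lower, among them the slide as a random block and the later array set alone. Irf1 was called lower than in the tail route with the deposited series values and with the slide as a random block. The medians over the 36 genes were 0.48 and 0.92, against 0.01 and -0.02 over all probes. The comparisons share the 3 K-LM P6 samples. Oas3 led over the kidney route, at 2.30 ± 0.35 or 4.91-fold (adjusted p = 0.000118). Its levels of -2.51, -2.58 and -2.87 in K-LM P6 lay above the -5.25, -4.996, -4.64, -4.94 and -5.73 of KPT P6 and the values of T-LM P6 given above, from which it differed by 2.88 ± 0.41 (adjusted p = 7.8e-05). Rsad2 was at -3.73, -4.57 and -4.36 in K-LM P6 and at -5.62, -5.87, -5.27, -5.26 and -5.76 in KPT P6. It was higher than in the kidney route by 1.29 ± 0.28 (adjusted p = 0.00231) and at least 6.37-fold higher than in the tail route (adjusted p = 4.98e-06).

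Usp18 separated all 3 routes by their means. Its levels were -1.27, -1.59 and -1.59 in K-LM P6, -2.73, -2.89, -2.70, -2.84 and -3.33 in KPT P6, and -3.96, -4.22, -3.17 and -3.18 in T-LM P6. The samples of the lung route stood apart, whereas those of the other routes overlapped. Usp18 was higher in the lung route by 1.39 ± 0.22 over the kidney route (adjusted p = 0.000173) and by 2.13 ± 0.26 over the tail route (adjusted p = 1.7e-05). Isg15, the modifier that Usp18 removes, was at 1.76, 1.15 and 1.46 in K-LM P6 and at 1.21, 0.77, 1.36, 1.03 and 0.22 in KPT P6, which overlap, and at -0.27, -0.48, 0.50 and 0.53 in T-LM P6. It was called over the tail route only, by 1.41 ± 0.31 (adjusted p = 0.00355).

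Dhx58 was at -3.93, -4.36 and -4.34 in K-LM P6 and at -6.01, -6.09, -6.07, -6.06 and -7.15 in KPT P6. It was higher by 1.91 ± 0.34 (adjusted p = 0.000493) and, over the tail route, by 2.03 ± 0.40 (adjusted p = 0.00149). Among the transcription factors, Stat2 was at -2.31, -2.13, -2.04, -2.04 and -2.82 in KPT P6 and at -2.15, -2.70, -1.61 and -2.02 in T-LM P6, all below K-LM P6. It was higher by 1.45 ± 0.22 (adjusted p = 0.000145) and by 1.26 ± 0.26 (adjusted p = 0.0024). Irf7 was at -3.08, -3.79 and -2.95 in K-LM P6 and at -4.85, -4.94, -4.44, -5.003 and -5.65 in KPT P6, a difference of 1.73 ± 0.37 (adjusted p = 0.00227). Of the Ifit proteins, Ifit1 was at -4.78, -5.40 and -4.87 in K-LM P6 and at -5.96, -6.62, -5.65, -6.25 and -7.24 in KPT P6. It was higher by 1.40 ± 0.31 over the kidney route (adjusted p = 0.00256) and by 2.44 ± 0.36 over the tail route (adjusted p = 0.000119). Ifit3 was at -4.95, -5.16 and -4.93 in K-LM P6, close to the -5.19, -5.45, -5.03, -4.93 and -5.74 of KPT P6, and was called over the tail route only, by 1.40 ± 0.22 (adjusted p = 0.000218).

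Further calls over the kidney route were Oas2 at 1.31 ± 0.32 (adjusted p = 0.00623), Gbp2 at 1.16 ± 0.23 (adjusted p = 0.00103), Oas1a at 0.97 ± 0.21 (adjusted p = 0.002) and Ddx58. Further calls over the tail route were Gbp3 at 1.30 ± 0.27 (adjusted p = 0.002), Bst2 at 1.201 ± 0.26 (adjusted p = 0.00317), Ddx58, Oas1a and Xaf1. In all, 10 genes were called higher in the lung route at both P5 and P6 in at least 1 of its pairwise comparisons, namely Bst2, Dhx58, Gbp3, Ifit1, Ifit3, Irf7, Isg15, Rsad2, Usp18 and Xaf1. The share of all probes that meet the same rule was not counted, and the pairwise tests at P5 were added after the data had been seen. The leukocyte mean of K-LM P6 was the lowest of the 3 groups at P6, 3 of 10 leukocyte genes were called lower and 1 higher than in KPT P6, and 7 of 10 were called lower than in T-LM P6. Of the 6 fibroblast genes 2 were called higher than in KPT P6. With all groups in 1 model, 3 genes were called over the kidney route and 5 over the tail route. That model called 948 and 797 of 26328 probes, against 3377 and 2603 of 22072 in the reported fits. Without K-LM P6 replicate 1, the reported fits called 5 genes over the kidney route and 8 over the tail route. Without its replicate 3, 7 genes were called over the kidney route.

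**Figure D4:**
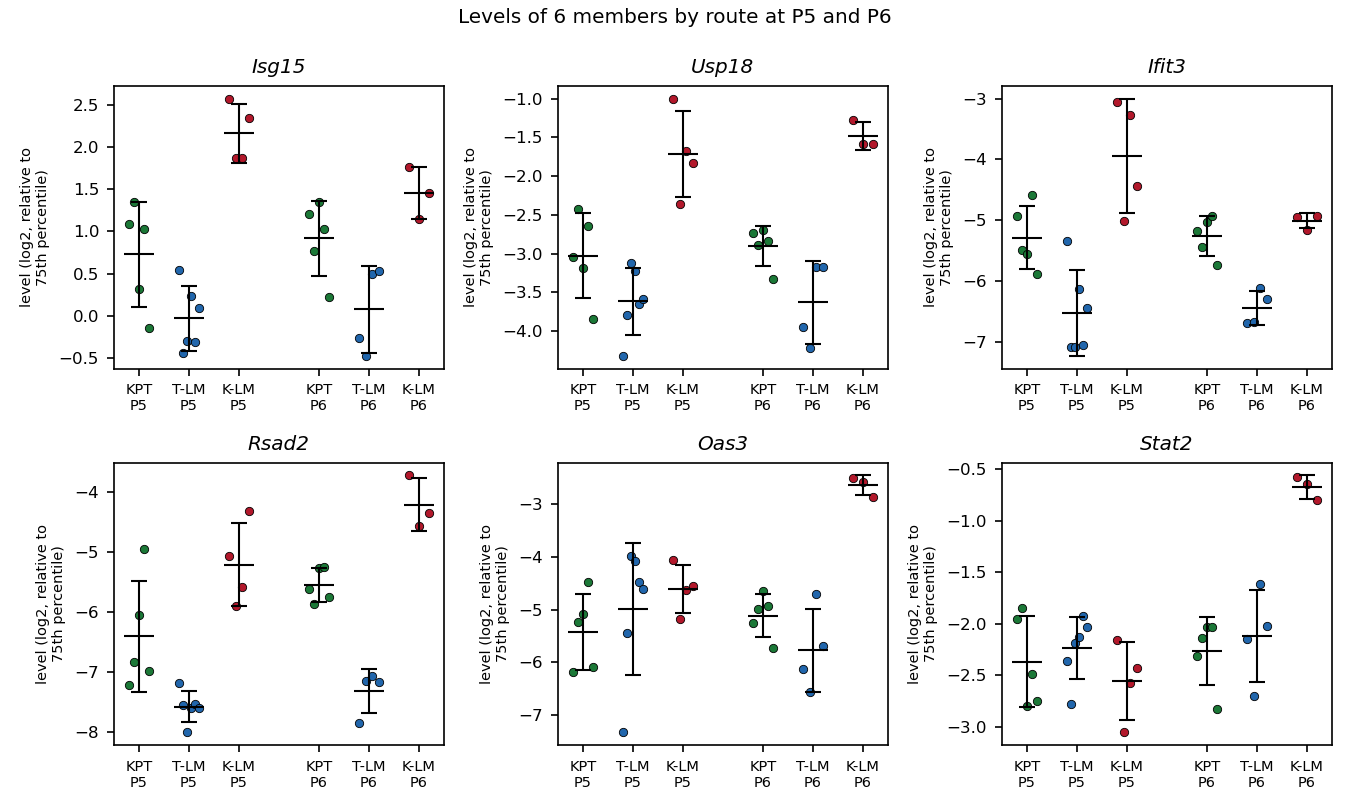
Levels (log2, vertical axis) of Isg15, Usp18, Ifit3, Rsad2, Oas3 and Stat2 at P5 and P6 by route (horizontal axis); points are RNA samples and bars are mean ± SD. Isg15 and Usp18 have their highest group mean in the lung route at both passages, although the Isg15 samples of K-LM P6 and KPT P6 overlap. Stat2 and Oas3 in the lung route are higher at P6 than at P5.

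The tail and kidney routes at P6 differed in 9 of 36 genes, 7 lower and 2 higher in the tail route, against 4.08% of all probes called lower and 7.19% higher. Rsad2 was at least 2.52-fold lower in T-LM P6 (adjusted p = 4.2e-05). Ifit3 was lower there by a difference of -1.19 ± 0.16 (adjusted p = 3.5e-05), and Ifit2, of the same family, by -0.85 ± 0.17 (adjusted p = 0.00159). Xaf1 was at -2.99, -3.31, -2.49 and -2.65 in T-LM P6 and at -1.79, -1.86, -1.59, -1.59 and -2.09 in KPT P6, with a difference of -1.09 ± 0.15 (adjusted p = 3.1e-05). Ifit1, Usp18 and Ifi44 were also called lower, at -1.04, -0.74 and -0.73, and their samples overlapped. Oasl1 was higher by 1.41 ± 0.18, or 2.66-fold (adjusted p = 1.6e-05), and its KPT P6 levels of -0.69, -0.35, -0.39, -0.42 and -0.22 lay below every T-LM P6 value. Irf1, a factor that interferon gamma induces, was higher by 0.56 ± 0.13 (adjusted p = 0.00446). In this comparison 6 of 10 leukocyte genes, 4 of 6 fibroblast genes and 2 of 3 lung epithelial genes were called higher in T-LM P6, and 1 leukocyte gene lower. Their part in the calls was not tested. The count was 5 without T-LM P6 replicate 2, and 1 with all groups in 1 model. That model called 672 of 26328 probes, against 2487 of 22072 in the reported fit.

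At P3 and P4 no test passed. At P3, in tests added after the data had been seen, limma called none of 34 genes between the lung and kidney routes or between the lung and tail routes, with 8 and 0 genes at an unadjusted p under 0.05, and 0% of all probes were called in either. In that pair the lung route had the lower mean for 32 of 34 genes against the kidney route. Gbp3, Rsad2 and Ifit1 had differences of -2.03, -1.78 and -1.76 (adjusted p = 1 for each). At P4 limma called none of 35 genes against either route, with 11 and 9 at an unadjusted p under 0.05, and 0% and 0.00937% of all probes were called. The lung route now had the higher mean for 32 of 35 genes against the kidney route and for 31 of 35 against the tail route. The mean of the 21 genes was -1.79, -1.52 and -3.44 in KPT P4, -0.81, -1.77 and -1.80 in K-LM P4, and -2.40 to -1.44 in T-LM P4. The values -3.44 and -0.81 were the lowest and the highest of the 65 RNA samples. The remaining samples of KPT P4 and K-LM P4 overlapped, and the tally without those extremes was not counted. Ifit1 differed by 2.69 ± 1.00 (adjusted p = 0.558) and 3.07 ± 0.94 (adjusted p = 0.205), and Ifit3 by 2.31 (adjusted p = 0.472) and 2.93 ± 0.62 (adjusted p = 0.1). Ifit3 was at -4.96, -3.79 and -2.22 in K-LM P4.

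The rest of the pathway was read from lists that hold none of the 40 genes. These lists are short. Over all probes, KPT P1 to P6 called 2577 of 22029 in either direction, T-LM P1 to P6 2134 of 23488, and K-LM P6 against KPT P6 3377 of 22072. Counts of 1 to 3 genes are therefore not read as results about a list. The ligands were near the detection limit: 16 of 21 interferon genes had a probe, and the only one tested at P5 was Ifnb1, interferon beta. Ifnb1 was well above background in 3 RNA samples, namely K-LM P5 replicate 2 (-6.01), K-LM P5 replicate 6 (-5.86) and KPT P6 replicate 3 (-5.71). The other K-LM P5 samples were at -6.13 and -7.09, KPT P5 was at -8.92 to -8.12 and T-LM P5 at -8.79 to -7.20. It passed the filter at P5 through those 2 K-LM samples alone, so that its difference between routes is given as these values, with no test. Ifng was not well above background on any array. Of 9 receptors and kinases, 3 fell from KPT P1 to P6 (Ifnar2, Jak2 and Tyk2), 1 fell from T-LM P1 to P6, 1 rose from T-LM P3 to P6 (Ifngr1), 2 were higher in T-LM P6 than in KPT P6 (Ifnar2 and Ifngr1), 1 was higher in K-LM P6 than in KPT P6 (Ifngr1), and 1 was lower in K-LM P5 than in KPT P5. In the last of these, Ifnar1 was lower in K-LM P5 than in KPT P5 by a difference of -1.19 (adjusted p = 0.00406), and in the tail route Tyk2 fell by 1.36 (adjusted p = 0.00276). Of 10 tested adaptors of nucleic acid sensing, 1 fell from T-LM P1 to P6 and 1 was higher in K-LM P6 than in T-LM P6, both times Ticam1, the adaptor of Toll-like receptor 3, which fell by 1.69 in the tail route (adjusted p = 3.07e-07) and differed between the lung and tail routes at an adjusted p of 0.000356. In the adaptor list 2 genes also rose from P0 to T-LM P1 and 1 fell from KPT P1 to P6, 2 were higher in T-LM P6 and 1 in K-LM P6 than in KPT P6, and 1 was lower in K-LM P5 than in KPT P5. Of the STAT and IRF factors outside the 40 genes, Stat3 rose from P0 to both P1 groups and to K-LM P6 and from K-LM P3 to P6, and was higher in K-LM P6 than in KPT P6, and Irf8 fell from KPT P1 to P6. Of 4 feedback regulators, Socs3 rose by 2.39 from K-LM P3 to P6 (adjusted p = 0.000203) and was higher in both T-LM P6 and K-LM P6 than in KPT P6, by 1.92 and 1.61. Socs3 also rose from P0 to KPT P1, T-LM P6 and K-LM P6 and from T-LM P3 to P6, and Socs1 rose from P0 to K-LM P6.

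A list of 48 further interferon-induced genes, 45 of them with a probe, was read beside the 40. From K-LM P3 to P6, 7 of its 40 tested genes rose and none fell, with a median change of 0.46 (2.44% of all probes rose). Among them, Gbp5 rose by 2.43, Lgals3bp by 2.24 and Znfx1, an RNA helicase, by 1.84. In either direction 767 of 22693 probes were called in that comparison. From T-LM P1 to P6, 6 fell and 2 rose, with a median of -0.41 (5.39% and 3.7% of all probes). At P6 the lung route was higher for 10 and lower for 1 against the kidney route (6.48% and 8.82% of all probes), and higher for 11 and lower for 5 against the tail route (4.23% and 7.57%). Between T-LM P6 and KPT P6, 5 were called higher and 2 lower in the tail route (7.19% and 4.08% of all probes). In the 40 genes more were called lower than higher there. The median change of the list was nevertheless negative, at -0.21, like the -0.31 of the 36 genes tested, against 0.01 over all probes. Over the 65 RNA samples, the mean of that list and the mean of the 21 genes had a Pearson r of 0.903 and a Spearman rho of 0.88, and r was 0.889 without the 2 farthest samples and 0.931 after removing group means. The same mean had r of 0.022 with the leukocyte mean and 0.113 with the fibroblast mean, or 0.332 and 0.051 after removing group means. These coefficients are descriptions over samples that share arrays, scaling and passage history.

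**Figure D5:**
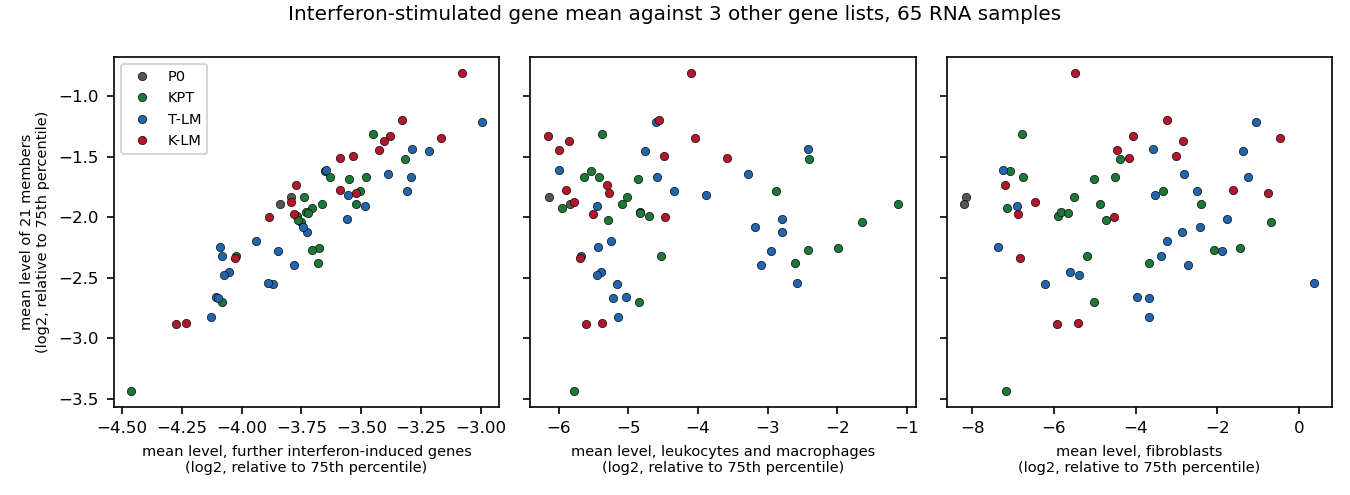
Mean log2 level of the 21 genes well above background on all arrays (vertical axis) against the mean of further interferon-induced genes, of leukocyte genes and of fibroblast genes (horizontal axes), over 65 RNA samples; each point is an RNA sample. The first panel follows a line (r = 0.903) and the others do not (r = 0.022 and 0.113).

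Across all comparisons 28 of the 36 genes were called at least once. The share of all probes called at least once was not counted. The comparison of K-LM P6 with KPT P6 alone called 3377 of 22072 probes, so that the 28 cannot be set against a background. The other 8 were Eif2ak2, Ifi35, Ifih1, Iigp1, Irf9, Oasl2, Samd9l and Trim25. They include a sensor (Ifih1, or MDA5), the DNA-binding subunit of the ISRE complex (Irf9), the translation-blocking kinase Eif2ak2 (PKR) and a ubiquitin ligase that acts on Ddx58 (Trim25). More than 1 probe named the same gene for 12 of the genes, and for 6 of them (Ddx58, Irgm1, Isg15, Oas1a, Samd9l and Zbp1) a second probe was bright enough to be tested. The widest gap between the probes of a gene was that of Ddx58 in the tail route from P1 to P6, where the brightest probe had a change of -0.83 (adjusted p = 0.015) and the second probe one of -1.95 (adjusted p = 0.00232).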

How the data were processed

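Total RNA of 65 samples was labelled with Cy5 and hybridized to Agilent SurePrint G3 mouse arrays, 70 arrays in all. Per the file headers, the deposited scanner files of Agilent Feature Extraction hold, for each spot, a processed signal as an intensity with the background subtracted by the authors' scanner software. The deposited table of the series holds log2 values, which equal the quantile-normalized log2 median signal to within 0.1055, and served as an alternative. The genome build of the array design is not given in the sources used here. The number of arrays limits the precision.

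From these files, control spots (3671 of 62976 per array) were left out, spots of a probe averaged, and each array's 75th percentile, over the 12209 probes well above background on all arrays, subtracted from log2 signal. Gene names came from a RefSeq table (GRCm38.p6) through the transcript accession, and 28026 of 55681 probes had 1 symbol. Groups were fitted with limma 3.58.1 and statmod 1.5.0 in R 4.3.3 over probes that passed the background flag on 2 or more of the arrays fitted, with Benjamini-Hochberg adjustment over all probes tested and a threshold of 0.01. Pairwise contrasts within 1 route used the first array of each RNA sample. Contrasts with K-LM P6, or at P6, used all arrays with a term for the array set and a random block for repeat arrays of the same RNA (correlation estimated on 4000 randomly drawn probes), so that a fitted change can differ from a difference of means. For the levels, repeat arrays were averaged first.

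The genes, their roles, the further lists and the comparisons were chosen with earlier results of these data known. Pairwise tests of the lung route at P3, P4 and P5 were added after seeing the data. In each comparison the called genes were named (at most 10, by size of change, with the others listed), or the 3 with the largest change where fewer than 3 were called, and values in every sample were given for at least the 2 called genes of the largest change in each role. All same-numbered samples deviated together only between KPT P1 and T-LM P1, where the deviations of all 4 pairs correlated (r = 0.196 to 0.336). In the other groups checked, only part of the pairs or none had an r above 0.1. Between T-LM P5 and K-LM P5, for example, 3 of 4 pairs did.

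The fits were tested on simulated data with 200 changed probes, 100 of each size: in a contrast like T-LM P1 to P6, 19 of those changed by 1 and 74 of those changed by 2 (log2) were called, and like K-LM P3 to P6, 13 and 83. Like P6 K-LM over KPT the counts were 61 and 96, and like P5 K-LM over T-LM 40 and 83. All other simulated probes were unchanged, whereas the real T-LM P1 to P6 contrast called 2134 of 23488 probes. The share recovered in the real data may therefore differ. Alternatives were the percentile over all probes, normexp background correction with an offset of 50 (on the median signal, since the files used here hold no mean signal), the deposited series values, no filter on dim probes, the slide as a random block, an RNA index as a covariate, all groups in 1 model, all probes of a gene averaged, the replicate number as a block, the later array set alone, and each sample left out in turn.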

Additional observations from a re-analysis of the deposited data

Results flagged for a closer look

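The means over the genes of each role were compared within groups of 4 to 10 samples, and in 3 of 81 combinations of a group and a mean 1 sample stood far from the others by Dixon's test; chance alone gives about 1 in 20. The mean of the 4 nucleic acid sensors was -4.11 in KPT P6 replicate 5, against -3.77 to -3.64 in the other samples of that group. The mean of the 4 transcription factors was -3.00 in the T-LM P1 sample labelled LOT1, against -2.28 to -2.0 in the others. The mean of the interferon-inducible GTPases was -4.65 in T-LM P5 replicate 1, against -5.79 to -5.48 in the others. The fibroblast mean of the LOT1 sample was -6.90, also the lowest of its group.

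The change of Ifit3 from P1 to P6 differed between the tail and kidney routes by -3.07 on the log2 scale, the only interaction that passed the threshold, and by -3.30 to -2.40 across the alternatives and left-out samples.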

How the results depend on the processing

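The number of all probes called also moved with the setting. For P6 K-LM over KPT, all groups in 1 model called 948 of 26328 probes, against 3377 of 22072 reported. For K-LM P0 to P6, the later array set alone called 3035 of 21010, against 1089 of 22693. For K-LM P3 to P6, the deposited series values called 794 of 22693, close to the 767 reported. All counts below are of called genes, beside the count reported. Under the percentile over all probes, KPT P1 to P6 had 4 (reported 2), T-LM P3 to P6 had 2 (1) and T-LM P0 to P6 had 1 (2). Normexp gave 0 for KPT P0 to P1 (1) and 1 for T-LM P0 to P6. Without the filter on dim probes, KPT P0 to P1 had 0, KPT P1 to P6 had 0, T-LM P0 to P6 had 1 and K-LM P3 to P6 had 3 (9). The deposited series values gave 5 for K-LM P3 to P6. With the slide as a random block, K-LM P3 to P6 had 4 and K-LM P0 to P6 had 6 (3). With the RNA index as a covariate, KPT P0 to P1 had 0, KPT P1 to P6 had 0, T-LM P0 to P1 had 1 (2), T-LM P1 to P6 had 4 (9), K-LM P3 to P6 had 1, the interaction had 2 (1), P5 K-LM over KPT had 2 (6) and P5 K-LM over T-LM had 5 (10). With all groups in 1 model, KPT P0 to P1 had 0, P1 T-LM over KPT had 1 (0), P6 T-LM over KPT had 1 (9), P6 K-LM over KPT had 3 (11), P6 K-LM over T-LM had 5 (13) and P4 K-LM over T-LM had 2 (0). With the replicate block, KPT P1 to P6 had 1, K-LM P3 to P6 had 3 and K-LM P0 to P6 had 5; every other count with the replicate block was within 1.5 times the count reported. Apart from P1, not all same-numbered samples of the groups checked deviated together, so that the replicate number was not taken as a pairing. On the later array set alone, K-LM P0 to P6 had 11. The cause was not tested in any of these. Leaving out 1 sample gave 0 to 1 for KPT P0 to P1, 0 to 2 for KPT P1 to P6, 0 to 2 for T-LM P0 to P1, 3 to 11 for T-LM P1 to P6, 1 to 3 for T-LM P3 to P6, 0 to 2 for T-LM P0 to P6, 2 to 10 for K-LM P3 to P6, 1 to 3 for K-LM P0 to P6, 5 to 10 for P6 T-LM over KPT, 5 to 11 for P6 K-LM over KPT, 8 to 15 for P6 K-LM over T-LM, 7 to 15 for the P5 routes, 2 to 7 for P5 K-LM over KPT and 4 to 11 for P5 K-LM over T-LM. Beside samples named in the report, the counts moved by over 1.5 times without KPT P1 replicates 3 (0) or 4 (0) in KPT P0 to P1; without KPT P1 replicates 1 or 4 or KPT P6 replicates 1 or 2 (1 each) in KPT P1 to P6; without T-LM P1 replicates 3 or 5 (5 each) or T-LM P6 replicates 1 or 4 (4 each) in T-LM P1 to P6; without T-LM P3 replicates 3 (2) or 5 (3) in T-LM P3 to P6; without P0 replicate 1 (1), P0 replicate 2 (0) or T-LM P6 replicates 1 (1), 3 (0) or 4 (1) in T-LM P0 to P6; without K-LM P3 replicate 5 (4) in K-LM P3 to P6; without P0 replicate 1 (1) in K-LM P0 to P6; without K-LM P5 replicates 2 (7) or 5 (8) in the P5 routes; without K-LM P5 replicates 3 or 5 (3 each) in P5 K-LM over KPT; and without K-LM P5 replicates 2 (5) or 5 (6) in P5 K-LM over T-LM. Among single genes, 1337 values kept their direction and their side of the threshold, 360 kept their direction and no longer passed, and none turned around. Signal over background limits Rsad2, Ifit1, Gbp7 and Cmpk2, which were dim in at least 1 group compared.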
